A study of Bos taurus with 30 samples.

Results

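Growth hormone and prolactin are the main products of 2 cell types of the anterior pituitary, and their genes were described here one calf at a time. The pair was chosen by Ensembl identifier, as ENSBTAG00000017220 for *GH1* (growth hormone) and ENSBTAG00000015274 for *PRL* (prolactin). They are 2 of the 27607 genes in the mRNA sequencing table, and both were measured in every library. The 30 libraries come from anterior pituitaries of Holstein-Friesian bulls killed at 12 weeks of age, 15 of them reared on the high (HI) and 15 on the moderate (MOD) plane of nutrition. From 2 weeks of age the daily HI ration was 1.5 kg of milk replacer made up to 10 litres, with concentrate to appetite. The daily MOD ration was 0.5 kg of milk replacer made up to 4 litres, with 0.5 kg of concentrate. All calves were male, of 1 breed and of 1 age, and each gave 1 library. The calves had been blocked on age, bodyweight, sire and farm before the diets were assigned, but no library is labelled with its block.

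Growth hormone is secreted by somatotrophs. Its release is stimulated by growth hormone-releasing hormone and ghrelin and restrained by somatostatin, and it acts on the liver and other tissues to drive growth, in part through insulin-like growth factor 1. Prolactin is secreted by lactotrophs, which dopamine from the hypothalamus holds in check, and it is best known for its part in mammary development and lactation. The 2 hormones are related proteins, both cell types depend on the transcription factor POU1F1, and some pituitary cells make both hormones. In the RefSeq annotation (assembly ARS-UCD2.0, a later build than the ARS-UCD1.2 used for these reads), *GH1* lies between *TCAM1* and *CD79B*. *PRL* lies between *HDGFL1* and *CSH2*, a placental lactogen gene, with the prolactin-related genes *PRP3* and *PRP-VII* beyond *CSH2*. How reads that fit more than 1 of these related genes were counted is not given in the sources used here. Transcripts of both hormones were abundant in every library of this tissue. The markers of other pituitary cell types were not analysed here because their identifiers are not paired with symbols.

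Library depth, taken as the recovered reads counted to genes, was between 14.7 M and 26.9 M (mega) reads. HI replicate 3 stood apart from the other 29 libraries. Its scaling factor was 0.510, against 0.894 to 1.15 elsewhere. At least 1 read was found in it for 16940 genes, and elsewhere for 18317 to 18975. Results that rest on this library are therefore given with and without it.

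The level of each gene was examined first, as the read count scaled by the authors to an effective library size (normalised CPM). *GH1* in HI ranged from 72318 in replicate 9 to 478285 in replicate 3, with a median of 96024. In MOD it ranged from 78683 in replicate 4 to 153763 in replicate 11, with a median of 98793. The groups overlapped widely, since 11 of 15 HI calves lay inside the MOD range, 2 above it and 2 below it. The MOD median was exceeded by 5 of 15 HI calves. HI averaged 123695 ± 101059 (SD, n = 15) and MOD averaged 109675 ± 23700 (SD, n = 15). Leaving out replicate 3 brought HI to 98368 ± 25215 (SD, n = 14), and its highest calf was then replicate 8 at 162104. In bulk tissue a difference in the number of hormone cells cannot be told apart from a difference in the RNA that each cell holds.

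*PRL* covered a wider range. In HI it ran from 54212 in replicate 6 to 276374 in replicate 5, with a median of 105635. In MOD it ran from 32659 in replicate 15 to 225325 in replicate 6, with a median of 73055. Again the groups overlapped, with 14 of 15 HI calves inside the MOD range and 11 of 15 above the MOD median. HI averaged 111003 ± 56904 (SD, n = 15) and MOD averaged 105317 ± 60160 (SD, n = 15). HI replicate 3, at 119580, was 10th of 30 and changed the HI mean little, to 110390 ± 59001 (SD, n = 14) when left out. The highest calf of the 30 had 8.46 times the normalised CPM of the lowest.

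The MOD calves were unevenly spaced in *PRL*. In 9 of them the level was 75525 normalised CPM or lower, in 6 it was 135435 or higher, and no MOD calf lay between, a gap of 1.79-fold. Of the HI calves, 9 lay inside that interval, 4 below it and 2 above it. This gap was chosen after the values were seen and was not tested. The widest gap between neighbouring MOD calves in *GH1* was 1.16-fold.

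**Figure D1:**
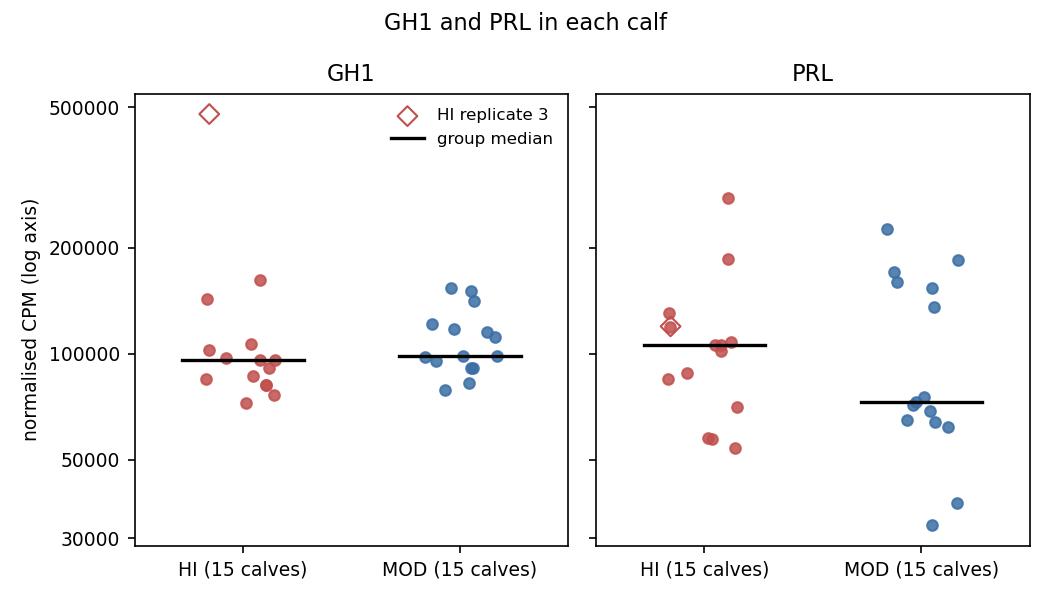
Normalised CPM on a log axis for *GH1* (left) and *PRL* (right), with 1 point per calf, HI in red, MOD in blue, a black line at the group median and an open diamond for HI replicate 3. In *GH1* the calves other than HI replicate 3 lie between 72318 and 162104, whereas in *PRL* they spread from 32659 to 276374 and the MOD calves leave a gap between 75525 and 135435.

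The pair's share of the reads counted to genes was then calculated as a percentage of recovered reads, which needs no scaling factor. Sequenced reads that were not counted to a gene are outside this share. *GH1* and *PRL* were the 2 most abundant genes by reads in all 30 libraries. *GH1* took 11.1% of reads on average and *PRL* 10.6% over the 30 libraries. Without HI replicate 3 the means were 10.6% for *GH1* and 10.7% for *PRL*, so their order rested on that library. The next 3 genes by mean share were ENSBTAG00000043561 at 1.65%, ENSBTAG00000016138 at 0.980% and ENSBTAG00000003212 at 0.886%. These shares follow transcript length as well as transcript number, and no lengths from the annotation of these reads were used here, so the levels of different genes are not ranked per transcript.

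The *GH1* share in HI was lowest in replicate 5, at 7.30%, had a median of 9.62% and was highest in replicate 3, at 24.4%. In MOD it was lowest in replicate 6, at 8.95%, had a median of 10.5% and was highest in replicate 11, at 15.1%. The *PRL* share in HI was lowest in replicate 3, at 6.10%, had a median of 9.58% and was highest in replicate 5, at 24.7%. In MOD it was lowest in replicate 15, at 3.74%, had a median of 7.72% and was highest in replicate 6, at 20.6%. The calf with the highest *GH1* share thus had the lowest *PRL* share in HI, but these were different calves in MOD. The calf with the highest *PRL* share had the lowest *GH1* share in either diet. A larger share of one gene leaves less for the other, so these pairings of extremes are a description only. Together the genes took from 14.2% of reads in MOD replicate 15 to 32.0% in HI replicate 5. Counting error is small at this depth, since the widest 95% binomial interval (Wilson) of any calf's share spanned 0.0344 percentage points for *GH1* and 0.0372 for *PRL*. These intervals cover counting error only.

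**Figure D2:**
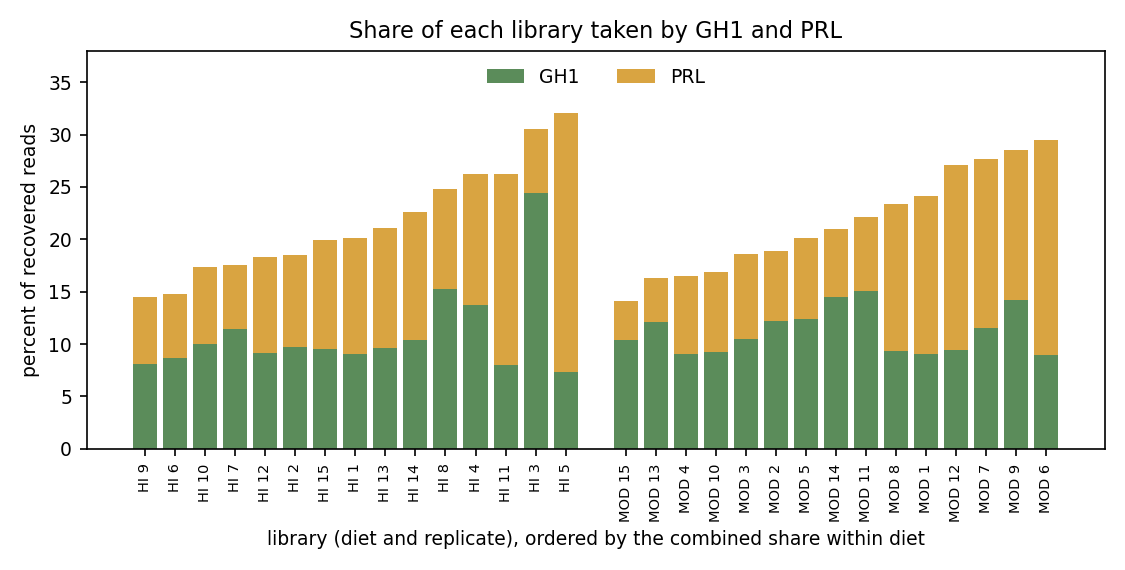
Percent of recovered reads taken by *GH1* (green) and *PRL* (orange) in each library, stacked, with HI libraries on the left, MOD on the right, and libraries ordered by the combined share within a diet. The combined bar runs from 14.2% to 32.0%, and the 3 libraries with the tallest *PRL* part (HI 5, MOD 6 and HI 11) have a *GH1* part of 7.30%, 8.95% and 8.02%.

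HI replicate 3 was the highest of the 30 calves in *GH1* under every scaling tried, but the size of its excess depended on the scaling. It was 4.91-fold over the median of the other 29 libraries as scaled by the authors and 5.33-fold with median-ratio size factors. It was 2.51-fold by percent of reads and 2.87-fold relative to the reads outside the pair. For *PRL* the direction itself depended on the scaling. The same library was 1.36-fold over the median of the others as deposited and 1.47-fold with median-ratio factors, yet 0.665-fold by percent of reads, where it ranked 28th of 30, and 0.782-fold relative to the reads outside the pair. A deposited value is proportional to the share of reads divided by the scaling factor, so the low factor raised both genes in this library. The low number of genes with a read accompanied this result. Its part in the result and the reason for the low factor were not tested.

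The balance of the hormones within a calf was taken as the log2 ratio of *GH1* to *PRL* reads, which does not depend on the scaling. It is used only to compare calves, because the ratio of reads is not a ratio of transcripts. *GH1* had more reads than *PRL* in 17 calves (8 HI and 9 MOD) and fewer in 13 (7 HI and 6 MOD). *GH1* exceeded *PRL* more than 2-fold in 1 HI calf, replicate 3, and in 4 MOD calves. *PRL* exceeded *GH1* more than 2-fold in 2 HI calves, replicates 5 and 11, and in 1 MOD calf, replicate 6.

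The log2 ratio in HI ranged from -1.76 in replicate 5 to 2.00 in replicate 3, with a median of 0.13. In MOD it ranged from -1.20 in replicate 6 to 1.56 in replicate 13, with a median of 0.28. As a percentage of the reads of both genes, *GH1* made up 22.8% in HI replicate 5 and 80.0% in HI replicate 3, and from 30.3% to 74.6% in MOD. Of the HI calves, 13 of 15 lay inside the MOD range of the ratio. The mean log2 ratio of the HI calves was 0.08 ± 0.86 (SD, n = 15), or -0.05 ± 0.71 without replicate 3 (SD, n = 14). That of the MOD calves was 0.26 ± 0.89 (SD, n = 15).

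**Figure D3:**
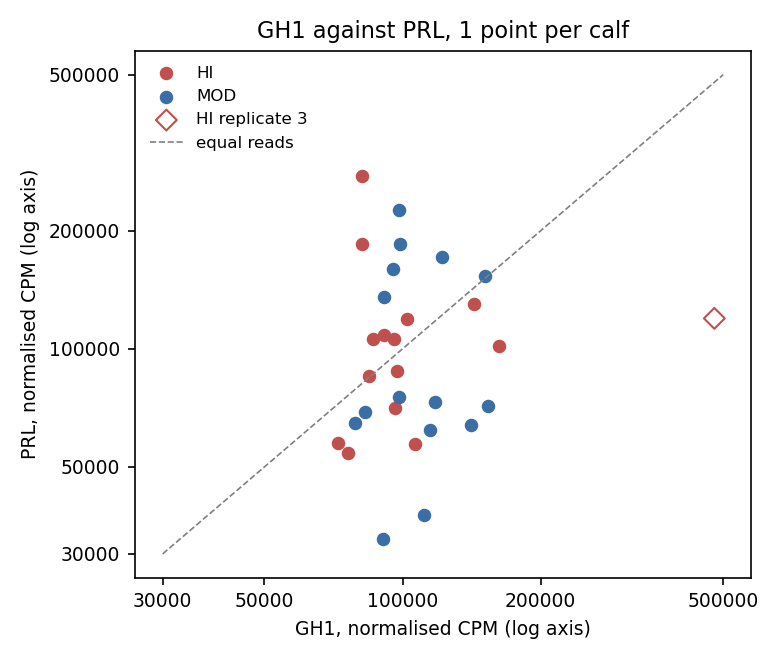
*PRL* against *GH1* in normalised CPM, both on log axes, with 1 point per calf (HI red, MOD blue, HI replicate 3 as an open diamond) and a dashed line of equal reads. Of the calves, 17 lie below the line and 13 above it, and apart from HI replicate 3 the cloud is taller than it is wide, with *PRL* between 32659 and 276374 and *GH1* between 72318 and 162104.

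The effect of diet on each gene was tested in limma over all genes whose value exceeded 1 in 15 or more libraries. A call required a Benjamini-Hochberg adjusted p below 0.1 together with a change of more than 1.5-fold. Neither *GH1* nor *PRL* was called. Calls were made for 0 (0%) of the 14290 genes tested. An unadjusted p below 0.05 was found for 933 genes (6.53%), among which was neither hormone gene. edgeR's quasi-likelihood test on recovered reads also called 0 genes (0%), with 1259 at an unadjusted p under 0.05. edgeR's likelihood-ratio test called 25 genes (0.175%) and the DESeq2 Wald test 26 (0.182%), and neither hormone gene was among them. Without HI replicate 3, limma called 11 of 14271 genes (0.0771%) and again neither hormone gene. The study itself, by edgeR with the same thresholds, reported genes that differed between diets, and neither hormone gene is among those it names.

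The log2 fold change of *GH1*, HI over MOD on the log2(value + 1) scale, was -0.01 ± 0.22 (SE), with a 95% interval from -0.46 to 0.44 (limma, Benjamini-Hochberg adjusted p = 0.992). Without HI replicate 3 it was -0.16 ± 0.15 (SE), with an interval from -0.48 to 0.15 (limma, adjusted p = 0.787). A change of 1.5-fold in either direction lies outside both intervals. Without the filter on low values, the interval over 30 libraries ran from -2.38 to 2.37 and included such a change. So did the interval of series 78 described next. The sign was positive in series 78, the largest set of libraries that share 2 digits of the number in the sample title (8 HI and 8 MOD, the meaning of the digits not being stated), at 0.22 (95% interval from -0.62 to 1.05), and was -0.05 there without HI replicate 3. Within series 78 the sign of this small difference thus turned with HI replicate 3. Over all libraries it was negative with and without that library, but leaving out HI replicate 9 instead gave 0.030.

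The log2 fold change of *PRL* was 0.16 ± 0.29 (SE), with a 95% interval from -0.42 to 0.75 (limma, adjusted p = 0.895). Without HI replicate 3 it was 0.15 ± 0.29 (SE), with an interval from -0.44 to 0.73 (limma, adjusted p = 0.920). Unlike that of *GH1* in the same setting, this interval includes a 1.5-fold higher level in HI. Within series 78 the value was 0.48, and 0.47 without HI replicate 3, with intervals from -0.50 to 1.46 and from -0.47 to 1.41.

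**Figure D4:**
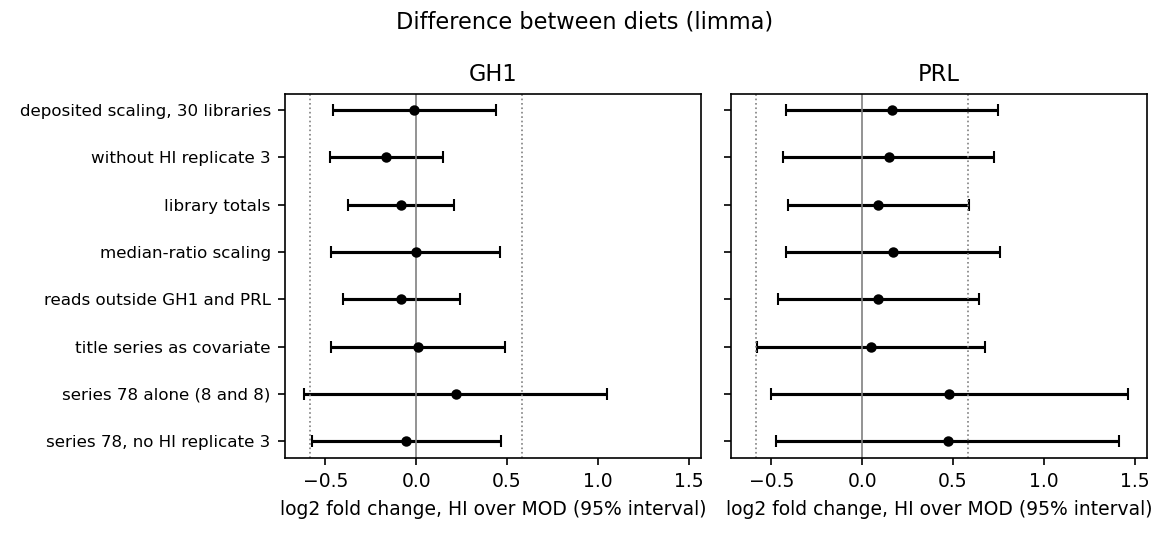
Log2 fold change between HI and MOD for *GH1* (left) and *PRL* (right), with 95% intervals from limma, under the deposited scaling with 30 libraries and under 7 other settings; dotted lines mark a 1.5-fold change. Every interval includes 0, and those of *PRL* are the wider in each setting.

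Shares and balance were compared between diets by permutation of the diet labels, as a family of 4 tests. The *GH1* share was 10.9 ± 4.28% (SD, n = 15) in the HI calves against 11.2 ± 2.14% (SD, n = 15) in the MOD calves, a difference of -0.255 percentage points (permutation test, p = 0.866, adjusted p = 0.988). Without HI replicate 3, the HI share was 9.99 ± 2.19% (SD, n = 14) and the difference was -1.22 points (permutation test, p = 0.143, adjusted p = 0.571). Within series 78 the difference was 0.915 points, and -0.789 points without HI replicate 3. The *PRL* share was 10.7 ± 5.06% in HI and 10.5 ± 5.30% in MOD, a difference of 0.225 points (permutation test, p = 0.906, adjusted p = 0.988). The combined share was 21.6 ± 5.34% in HI and 21.7 ± 4.93% in MOD, a difference of -0.0294 points (permutation test, p = 0.988). The log2 ratio of *GH1* to *PRL* differed by -0.17 (permutation test, p = 0.591, adjusted p = 0.988), or by -0.31 without HI replicate 3 (permutation test, p = 0.313, adjusted p = 0.626). Within series 78 the ratio differed by -0.26 (permutation test, p = 0.635), or by -0.52 without HI replicate 3 (permutation test, p = 0.322). None of these differences had a p below 0.05 by permutation.

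The spread between calves was compared next, as the standard deviation of log2 values within a diet. Within HI the SD of *GH1* was 0.68, and 0.33 without replicate 3, against 0.30 in MOD. For *PRL* it was 0.63 in HI and 0.85 in MOD. The difference between diets, HI minus MOD, was 0.38 for *GH1* (permutation test, p = 0.265, adjusted p = 0.397) and 0.03 without HI replicate 3 (permutation test, p = 0.764). It was -0.22 for *PRL* (permutation test, p = 0.199, adjusted p = 0.397) and -0.03 for the log2 ratio (permutation test, p = 0.907), or -0.18 without HI replicate 3 (permutation test, p = 0.364). On the linear scale, the coefficient of variation of *GH1* was 81.7% in HI, 25.6% in HI without replicate 3 and 21.6% in MOD, and that of *PRL* was 51.3% in HI and 57.1% in MOD.

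*PRL* varied more between calves of the same diet than *GH1* did, once HI replicate 3 was left out. The SD of log2 values around the diet means was 0.76 for *PRL* and 0.31 for *GH1* over 29 libraries, a difference of 0.45 (permutation test with the genes swapped within calves, p = 0.00024). With HI replicate 3 included, the values were 0.75 and 0.52, and their difference of 0.23 did not pass (permutation test, p = 0.208). On shares of reads the same difference, over all 30 libraries, was 0.31 (permutation test, p = 0.00461). Within series 78 it was 0.23 (permutation test, p = 0.364), and 0.56 without HI replicate 3 (permutation test, p = 0.00499). With median-ratio scaling over 30 libraries it was 0.21 (permutation test, p = 0.272). This comparison was added after the data had been seen.

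Set beside other abundant transcripts, *PRL* was the 2nd most variable of 55 genes with a mean of at least 1000 normalised CPM, both with and without HI replicate 3. *GH1* was 8th without that library and 14th with it. The median SD of the 55 genes was 0.22 without HI replicate 3 and 0.35 with it. Over all 14290 genes tested, which include many with low counts, *PRL* ranked 164th and *GH1* 3773rd from the most variable without HI replicate 3, and 526th and 2753rd with it.

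Whether calves with more *GH1* also had more *PRL* was asked within diets. Pearson's r of log2 values around the diet means was 0.0896 over 30 calves (permutation test, p = 0.594, adjusted over 3 relations p = 0.857), and Spearman's rho was 0.119 (permutation test, p = 0.529). Within HI r was 0.134 (permutation test, p = 0.591) and rho 0.175 (permutation test, p = 0.531), and within MOD r was 0.0507 (permutation test, p = 0.857) and rho 0.10 (permutation test, p = 0.725). Without HI replicate 3 the pooled r was 0.0638 (permutation test, p = 0.744) and the rho 0.0904 (permutation test, p = 0.644). With the 2 calves farthest from the *GH1* median left out, r was 0.0678 (permutation test, p = 0.741). Within series 78 it was -0.0382 (permutation test, p = 0.880). No relation between the hormone genes was detectable across calves on this scale.

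The sign of this correlation depended on the scaling. By percent of reads, where a larger share of one gene leaves less for the other, r was -0.349 over 30 calves (permutation test, p = 0.0472, adjusted p = 0.142) and -0.297 without HI replicate 3 (permutation test, p = 0.121). Relative to the reads outside the pair, r was -0.0617 over 30 calves (permutation test, p = 0.732) and 0.0412 without HI replicate 3 (permutation test, p = 0.833).

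The genes whose levels followed each hormone most closely across calves were then listed, over the 29 libraries other than HI replicate 3 and around the diet means. These genes were picked for their correlation out of 14289, so r is given as a description only, and all libraries share the scaling that enters both sides. Highest with *GH1* were ENSBTAG00000049910 (r = 0.790) and ENSBTAG00000011420 (r = 0.789). Lowest were ENSBTAG00000014417 (r = -0.796) and ENSBTAG00000013918 (r = -0.789). With HI replicate 3 included, these 4 values moved to 0.911, 0.931, -0.921 and -0.872, that library holding the highest value of both genes that followed *GH1* and the lowest value of both that opposed it. ENSBTAG00000049910, for example, was at 297 normalised CPM in HI replicate 3, against a mean of 54.2 over the 30 libraries. By percent of reads the r of that gene with *GH1* was 0.683.

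Highest with *PRL* were ENSBTAG00000043553 (r = 0.893) and ENSBTAG00000010860 (r = 0.891). The first reached r = 0.917 in HI and 0.880 in MOD, the second 0.809 and 0.934. ENSBTAG00000010860 ranged from 80.0 normalised CPM in MOD replicate 15 to 385 in HI replicate 5, the same calves in which *PRL* was lowest and highest. Lowest with *PRL* were ENSBTAG00000001068 (r = -0.766) and ENSBTAG00000054639 (r = -0.746). With HI replicate 3 included, these 4 values moved to 0.856, 0.878, -0.643 and -0.675. That library held the highest value of ENSBTAG00000043553 (3215 normalised CPM) and of ENSBTAG00000001068 (24.1). It also held the lowest value of ENSBTAG00000054639 (0.0818), but neither extreme of ENSBTAG00000010860. Extreme values in HI replicate 3 were thus not particular to the genes listed with *GH1*. An r over 0.7 in size was found with *PRL* for 52 genes in the positive and 4 in the negative direction, and for 27 and 1 with HI replicate 3 included. With *GH1* it was found for 40 and 59 genes, and for 2740 and 3068 with HI replicate 3 included, so this count for *GH1* rested largely on 1 library.

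Genes that act around hormone release were examined as a list of receptors and signalling genes, transcription factors, processing enzymes and other pituitary hormones. Of this list 8 genes that carry an identifier paired with a symbol are reported. All 8 are genes that the study itself selected for a diet difference on these calves, by edgeR with the same thresholds as here. Their directions, small p-values and calls follow from that selection and are not independent evidence, and the shares over all genes are given for scale only. The receptors of hypothalamic releasing and inhibiting hormones, *POU1F1*, and the receptors of growth hormone and prolactin were not analysed here. All 8 passed the filter on low values and 0 of 8 were called in limma, as were 0% of all genes. This differs from the study, whose edgeR test called all 8. In limma the log2 fold change of the 8 genes was positive in 5 and negative in 3. Its median was 0.55, against -0.0049 over all genes tested. An unadjusted p under 0.05 was found in limma for 8 of 8, against 6.53% of all genes. In the quasi-likelihood, likelihood-ratio and Wald tests it was found for 7 of 8, against 1259, 1317 and 1231 of all 14290 genes. The exception in each was *NKX2-2*. Without HI replicate 3, limma called 1 of 8, *PTPN5*, which was lower in HI, against 0.0771% of all genes. With 30 libraries scaled by the reads outside the pair, limma also called *PTPN5* alone of the 8, against 0.0479% of all genes. The likelihood-ratio and Wald tests on recovered reads each called 3 of 8, against 0.175% and 0.182% of all genes, namely *VIPR2* and *CARTPT* higher and *PTPN5* lower in HI.

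Among receptors and signalling genes, *ADCYAP1R1*, the receptor of the pituitary adenylate cyclase-activating peptide PACAP, averaged 2.48 ± 1.89 normalised CPM over the HI calves and 1.24 ± 0.703 over the MOD calves (SD, n = 15 each). *VIPR2*, a receptor shared by vasoactive intestinal peptide and PACAP, was at 4.56 ± 3.05 in HI and 2.30 ± 0.648 in MOD. *RGS4*, which shortens G-protein signals, was at 7.99 ± 4.83 in HI and 4.47 ± 1.92 in MOD. *PTPN5*, a tyrosine phosphatase, was at 16.9 ± 5.86 in HI and 26.5 ± 6.35 in MOD, with 0 of 15 HI calves exceeding the median of MOD. On the log2 scale *PTPN5* differed by -0.66 ± 0.15 (SE), with an adjusted p = 0.174 in limma.

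Of the transcription factors, *NKX2-2*, a homeobox factor of neural and endocrine cells, was at 48.0 ± 43.9 normalised CPM in HI, where replicate 3 held the highest value of 198, at 37.3 ± 15.2 in HI without that replicate (SD, n = 14), and at 60.1 ± 16.8 in MOD. *FOS*, an immediate early gene, was at 30.1 ± 25.2 in HI and 69.5 ± 41.2 in MOD, with 1 of 15 HI calves exceeding the median of MOD. *PCSK1*, a convertase that cuts prohormones, was at 33.6 ± 15.6 in HI and 19.8 ± 9.49 in MOD. *CARTPT*, the precursor of the CART peptides, was at 7.34 ± 8.18 in HI and 2.16 ± 2.00 in MOD. These genes were thus several orders of magnitude below *GH1* and *PRL* in normalised CPM, a comparison that takes no account of length.

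Covariation of the 8 genes with each hormone across calves of the same diet gave 16 relations. Over the 29 libraries without HI replicate 3, 0 of 16 passed an adjusted p of 0.05. The lowest adjusted p by Pearson's r were those of *GH1* with *CARTPT*, with r = 0.482 (permutation test, p = 0.0106, adjusted p = 0.0848) and rho = 0.360 (permutation test, p = 0.0629), and of *PRL* with *RGS4*, with r = -0.465 (permutation test, p = 0.0103, adjusted p = 0.0848) and rho = -0.514 (permutation test, p = 0.00537). By Spearman's rho the lowest adjusted p, 0.0627 by permutation, were those of *PRL* with *RGS4* and of *GH1* with *NKX2-2* (rho = 0.491, permutation test, p = 0.00784), and that of *GH1* with *CARTPT* was 0.252. With the 2 farthest calves left out, r was 0.440 for *GH1* with *CARTPT* and -0.397 for *PRL* with *RGS4*. Within series 78 these were 0.517 and -0.564.

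With HI replicate 3 included, 4 of the 16 relations passed. For *GH1* they were *CARTPT* at r = 0.580 (permutation test, adjusted p = 0.0121), *NKX2-2* at 0.703 (adjusted p = 0.0121 by permutation) and *PCSK1* at -0.561 (adjusted p = 0.0121 by permutation). For *PRL* it was *RGS4* at -0.444 (permutation test, adjusted p = 0.0413). In the 29 other libraries *NKX2-2* and *PCSK1* had r of 0.404 and -0.359 with *GH1*. All 4 relations passed with HI replicate 3 and not without it, although the r of *PRL* with *RGS4* itself was -0.465 without that library.

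**Figure D5:**
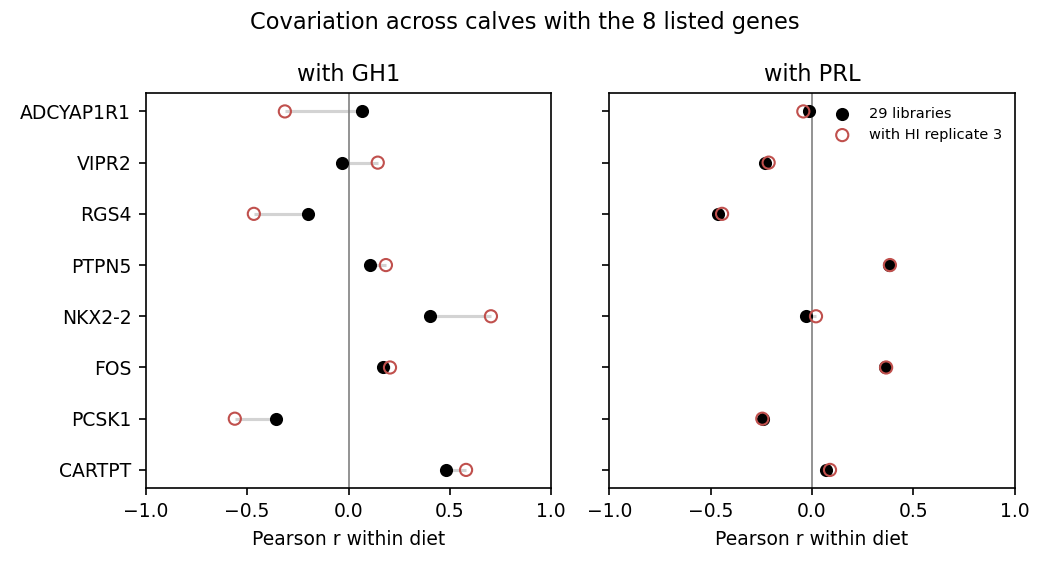
Pearson's r within diet of the 8 listed genes with *GH1* (left) and *PRL* (right), over 29 libraries (black points) and with HI replicate 3 included (open red circles). The circles and points lie close together for *PRL*, whereas for *GH1* they part further, as in *ADCYAP1R1*, where r is 0.0652 over 29 libraries and -0.314 over 30.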

How the data were processed

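Libraries of poly(A) RNA were stranded and read from both ends. Per the submitters' processing notes, the tools were FastQC 0.11.8, cutadapt 2.6, STAR 2.6.1, R 3.4 and edgeR 3.5, with genome build ARS-UCD1.2. The methods of the published study give other versions of cutadapt, STAR, R and edgeR. The authors deposited a normalised signal per gene, computed from read counts (normalised CPM). Dividing each column by its smallest step gave whole reads, within 0.01 of a read, for 100% of 556895 nonzero values. Of the 27607 genes, 5141 had no read. Total recovered reads per library, all of them counted to genes, were 14.7 M to 26.9 M. This sets a counting error far below the spread between calves for both hormone genes.

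Groups came from the diet labels. Genes whose value exceeded 1 in 15 or more libraries were tested on log2(value + 1) with limma 3.58.1 (trend) in R 4.3.3, two-sided, with Benjamini-Hochberg adjustment over all genes tested. Fold changes on this scale understate changes of low genes. Count tests on recovered reads (edgeR 4.0.16, DESeq2 1.42.0) were alternatives, as were other scalings, pseudocounts and filters, each library left out and title series. Shares, ratio, spread and correlations used 100000 permutations (Python 3.11.15, SciPy 1.17.1), two-sided, for which the smallest p is 1e-05. Correlations were taken on log2(value + 1). Limma, the edgeR tests and the ranking of correlates were tested on simulated data. The DESeq2 and permutation tests were not. P-values take the calf as the unit and do not account for the unlabelled blocks.

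The members and lists were chosen with earlier results of these data known. Named genes were both hormone genes, the listed genes with an identifier, the 2 highest and 2 lowest correlates of each hormone gene, and the next 3 genes by share. The spread of *PRL* against *GH1*, the correlations with listed genes, several settings without HI replicate 3, and the count tests of the list were chosen after seeing the data. Symbols of listed genes come from the study's gene table and those of the hormone genes from the selection of the pair. The RefSeq table matched 0 Ensembl identifiers. Replicates were numbered in accession order. A listed gene is not reported here.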

Additional observations from a re-analysis of the deposited data

How the results depend on the processing

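Neither hormone gene was called under any of 47 alternatives, with adjusted p of at least 0.689 for *GH1* and 0.613 for *PRL* (limma, edgeR or DESeq2), and the sign of *PRL* stayed positive in all 47. The sign of *GH1* turned positive with edgeR's quasi-likelihood and likelihood-ratio tests (0.17), with title series as a covariate (0.0105) and in series 78 (0.22), and leaving out 1 library gave -0.16 (HI replicate 3) to 0.030 (HI replicate 9). In series 78 the *GH1* share difference was 0.915 points (-0.789 without HI replicate 3), the combined share 2.69 points (1.78 without HI replicate 3) and the spread difference of the log2 ratio 0.19 (0.0061 without HI replicate 3). Leaving out 1 library gave -1.22 to 0.0235 points for the *GH1* share, -0.777 to 0.948 for *PRL*, -0.771 to 0.532 for both, and -0.18 to 0.040 for the ratio spread. By median absolute deviation the spread difference was -0.036 for *GH1*, -0.59 for *PRL* (permutation test, p = 0.241) and -0.47 for the log2 ratio (permutation test, p = 0.0568, adjusted p = 0.170). The pooled correlation of the pair turned to -0.0382 in series 78 (-0.112 without HI replicate 3), -0.349 by library totals (-0.297 without it) and -0.0617 by reads outside the pair. In HI it was -0.111, -0.343, -0.394, -0.241 and -0.118 in the same order. In MOD it was -0.348 by library totals, -0.0225 without the 2 farthest calves, and -0.0718 (without MOD replicate 9) to 0.118 (without MOD replicate 14) with 1 library left out. The excess of *PRL* over *GH1* in spread was 0.18 to 0.45 with 1 library left out and passed only without HI replicate 3 among these. It also passed by library totals (0.31, and 0.40 without HI replicate 3), by reads outside the pair (0.36 and 0.47), by median-ratio scaling without HI replicate 3 (0.45) and in series 78 without it (0.56). With HI replicate 3 it did not pass by median-ratio scaling (0.21) or in series 78 (0.23). The 8 listed genes had been selected by the study on these calves, so counts of them called are not independent evidence. Of these 8, 3 were called by the likelihood-ratio test (0.175% of all genes), 3 by the Wald test (0.182%) and 1 by the quasi-likelihood test without HI replicate 3 (14 genes, 0.0981%). Limma called 0 with 30 libraries as deposited, 1 scaled by reads outside the pair (0.0479% of all genes) and 1 without HI replicate 3 (0.0771%). The causes were not tested. HI calves could not be paired with MOD calves because the labels give no block. Cell counts are not given either. For *GH1* and *PRL* the counting error was far below the spread between calves, whereas some listed genes had few reads, down to 3 for *ADCYAP1R1* in a library.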
